A study of Homo sapiens with 12 samples.

Results

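The genes described here are the 7 cyclin-dependent kinase (CDK) inhibitors of the CIP/KIP and INK4 families (*CDKN1A*, *CDKN1B*, *CDKN1C*, *CDKN2A*, *CDKN2B*, *CDKN2C* and *CDKN2D*) and the 3 genes of the GADD45 family (*GADD45A*, *GADD45B* and *GADD45G*). They were chosen by symbol, as 10 of the 43236 gene symbols counted. These genes and the gene lists set beside them were chosen with earlier results of these data known. Their counts beside the shares of all tested genes are therefore a description. Of the 10, 8 passed the filter on low counts, as did 15979 genes in all, and the other members, *CDKN2A* and *CDKN2B*, had no count in any library. RNA sequencing was performed on MNNG/HOS cells, an established osteosarcoma line, to ask how NXP800 changes their mRNA. NXP800 is a small molecule that came out of a search for inhibitors of the heat shock factor 1 pathway. The 4 groups, each of 3 libraries, were cells given the solvent DMSO for 6 h, 300 nM NXP800 for 6 h, DMSO for 24 h and 300 nM NXP800 for 24 h, the dose being given in the methods of the study. All 12 libraries are poly(A) RNA of 1 cell line with no genetic change between groups, so they show this line alone.

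A cell enters S phase when CDK4 or CDK6 with a D-type cyclin, then CDK2 with cyclin E, inactivate the retinoblastoma protein. INK4 proteins bind CDK4 and CDK6 and keep D-type cyclins from activating them, whereas CIP/KIP proteins bind complexes of cyclin and CDK more broadly. GADD45 proteins are small stress-induced proteins that bind PCNA, p21, CDK1 and the kinase MAP3K4, and their genes, like *CDKN1A*, are transcribed in response to DNA damage, unfolded proteins and amino acid shortage.

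After 6 h of NXP800, *GADD45A*, *CDKN1A*, *GADD45B* and *CDKN1B* rose, and *CDKN2C* and the weakly expressed *GADD45G* fell. After 24 h, *CDKN1A*, *GADD45A*, *CDKN1C* and *GADD45B* were higher than in DMSO and *CDKN2C* and *CDKN2D* were lower. At 6 h, 4 of 8 tested members were increased, where 25.0% of all tested genes were, and 2 were decreased, where 27.8% were. At 24 h the members again counted 4 increased against 27.5% of all genes and 2 decreased against 28.6%. Of these calls, those of *GADD45G* at 6 h (edgeR adjusted p = 0.0381) and *GADD45B* at 24 h (0.0422) were lost in most fits with 1 library left out. In 6 of 8 members at each time the 3 NXP800 libraries did not overlap with the 3 DMSO libraries, which was the case for 62.0% of all tested genes at 6 h and 59.1% at 24 h. The median log2 fold change was 0.09 for the members at 6 h and 0.20 at 24 h, and -0.046 and -0.0033 for all tested genes.

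Libraries held 30810614 to 31947656 counts on genes, so 3 counts, the floor used here for a gene at 0, correspond to 0.0911 to 0.103 CPM (counts scaled to a fixed library size). Read pairs on no annotated gene made up 6.66 to 8.14% of the libraries at 6 h and 2.73 to 3.67% of those at 24 h, so the time points also differ in this technical measure, whose part in the differences between time points was not tested. Of 8 genes of the osteoblast lineage, *SPARC*, *COL1A1*, *SPP1* and *RUNX2* were expressed, whereas *SP7* and *BGLAP* had at most 1 and 2 counts in any library, *ALPL* at most 7 and *COL1A2* at most 12. Among markers of other cell types, *CD3E*, *CDH1* and *PTPRC* had at most 1, 2 and 5, *VWF* and *PECAM1* at most 29, and *EPCAM* had between 170 and 325 counts per library. *EPCAM*, an epithelial adhesion protein, rose at 24 h by 0.81 on the log2 scale (SE 0.102, edgeR adjusted p = 4.85e-06), and the endothelial genes *VWF* (-1.33 at 6 h and -2.07 at 24 h) and *PECAM1* (-1.17 at 6 h) fell. *SPARC* (-0.79 and -2.02) and *COL1A1* (-0.50 and -0.76) fell at both times and *SPP1* (-1.29) at 24 h, whereas *RUNX2* rose (0.71 and 0.36). The part of these changes in the results on the members was not tested. The labels name replicates without saying that they are separate cultures, so p-values measure the spread between these libraries. In bulk RNA, fewer cells of a kind and less RNA per cell cannot be told apart.

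The start regions found for 8 of the 10 members were searched for short motifs. They are shown for *CDKN1A*, *CDKN1B* and *GADD45B*, which rose together at 6 h, and for *CDKN2C*, which fell. Each is the stretch before an annotated RefSeq start (GRCh38.p14, plus strand, 5′ to 3′) that lies outside annotated exons. Capitals mark matches to the GC box that SP1 binds, searched as GGGCGG, to the box that NF-Y binds, searched as CCAAT, and to the TATA box, searched as TATAA. Both strands were searched, and adjoining GC boxes can share bases. The *CDKN1A* stretch is chr6:36678560-36678709, that of *CDKN1B* chr12:12717118-12717367 and that of *GADD45B* chr19:2475877-2476121. The upstream *CDKN2C* stretch is chr1:50960495-50960744 and the downstream one chr1:50969995-50970244.
CDKN1A: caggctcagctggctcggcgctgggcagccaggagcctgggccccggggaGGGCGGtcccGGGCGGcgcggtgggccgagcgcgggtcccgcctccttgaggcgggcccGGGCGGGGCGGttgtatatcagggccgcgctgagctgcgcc
CDKN1B: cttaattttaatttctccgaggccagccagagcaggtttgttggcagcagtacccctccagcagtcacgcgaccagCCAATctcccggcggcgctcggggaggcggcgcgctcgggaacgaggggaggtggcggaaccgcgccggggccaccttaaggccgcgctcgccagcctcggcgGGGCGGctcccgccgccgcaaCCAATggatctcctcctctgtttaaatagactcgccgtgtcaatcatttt
GADD45B: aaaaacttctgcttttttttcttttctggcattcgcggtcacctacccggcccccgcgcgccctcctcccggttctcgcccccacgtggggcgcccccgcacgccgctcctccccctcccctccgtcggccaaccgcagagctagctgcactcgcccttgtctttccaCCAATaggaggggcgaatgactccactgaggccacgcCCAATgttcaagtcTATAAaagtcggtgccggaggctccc
CDKN2C upstream: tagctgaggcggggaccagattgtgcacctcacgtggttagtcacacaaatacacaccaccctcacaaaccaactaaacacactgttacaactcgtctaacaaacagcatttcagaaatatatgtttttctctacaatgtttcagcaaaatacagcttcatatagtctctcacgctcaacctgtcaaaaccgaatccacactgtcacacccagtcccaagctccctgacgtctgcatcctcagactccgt
CDKN2C downstream: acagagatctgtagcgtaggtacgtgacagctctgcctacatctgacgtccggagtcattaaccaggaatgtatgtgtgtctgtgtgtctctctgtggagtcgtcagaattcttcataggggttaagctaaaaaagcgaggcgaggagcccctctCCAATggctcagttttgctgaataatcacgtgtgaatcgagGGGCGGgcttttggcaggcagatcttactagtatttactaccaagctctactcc

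*CDKN1A* carries 4 GC boxes within 104 bases of the start used and neither a TATAA nor a CCAAT. This start lies inside the annotated span of *CDKN1A*, downstream of its first base. Of the 250 bases before it, 100 lie in annotated exons of *CDKN1A* or *DINOL*. *CDKN1B* has 1 GC box and 2 CCAAT boxes, and *GADD45B* has 2 CCAAT boxes and a TATAA whose first base lies 31 bases before the start. *CDKN2C* has 3 annotated starts. The upstream window has none of these motifs, the downstream window has 1 GC box and 1 CCAAT box, and the window between them, which lies within annotated exons and is not printed, has 5 GC boxes. Other members that fell hold these motifs too. *GADD45G* has 1 CCAAT box and a TATAA whose first base lies 27 bases before the start, and *CDKN2D* has 2 GC boxes and 1 CCAAT box. Windows were found for 8 of the 10 members, 11 windows in all, the members without one being *CDKN1C* and *GADD45A*. Among 35116 windows of 250 bases before the starts of all genes in the table, GGGCGG occurred in 42.6%, CCAAT in 32.0% and TATAA in 18.9%. The stress-related motifs TGACGTCA (in 1.65% of all windows), TGATGNAA (3.14%) and TGANTCA (6.57%) were searched on both strands too. Of these, TGATGNAA matched in *GADD45G* on the minus strand, 102 to 95 bases before its start, and none of the other 10 windows searched held any of them. A match is a description of the letters and not a binding site.

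*CDKN1A* (gene ID 1026, chr6:36676463-36687332, plus strand) encodes p21, the CIP/KIP inhibitor whose transcription many stress signals drive. At 6 h it had 1287, 1241 and 1428 counts in the DMSO libraries and 6440, 6279 and 5376 in the NXP800 libraries. After 24 h it had 526, 418 and 527 counts with DMSO and 1673, 2012 and 1423 with NXP800. All NXP800 libraries lay above all DMSO libraries of their time. The mean rose from 41.1 to 185 CPM at 6 h, a log2 fold change of 2.17 (SE 0.112, 4.50-fold, edgeR adjusted p = 4.22e-10). With NXP800 for 24 h the mean was 54.6 CPM and with DMSO 16.6 CPM, and the log2 fold change was 1.72 (SE 0.118, 3.29-fold, edgeR adjusted p = 5.28e-09). The DMSO level itself was 2.48 times as high at 6 h as at 24 h, and the 24 h NXP800 level was 1.33 times the 6 h DMSO level. These ratios between the times were not tested. The response was smaller at 24 h by 0.45 on the log2 scale (SE 0.159, edgeR adjusted p = 0.0467), a difference that lost its call when any of 9 of the 12 libraries was left out, with adjusted p from 0.0121 to 0.116 over all 12 such fits.

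*CDKN1B* (gene ID 1027, chr12:12717368-12722369, plus strand) encodes p27, an inhibitor of CDK2 complexes that is controlled largely by protein turnover. Its counts at 6 h were 1057, 1217 and 1212 with DMSO and 1484, 1692 and 1641 with NXP800. The groups did not overlap, and the log2 fold change was 0.44 (SE 0.0771, 1.36-fold, edgeR adjusted p = 0.000154). At 24 h the counts were 1226, 1073 and 1127 with DMSO and 1212, 1149 and 1155 with NXP800, and the groups overlapped. The log2 fold change there was -0.037 (SE 0.0777, edgeR adjusted p = 0.708), its sign depending on the scaling. The response at 24 h lay below that at 6 h by 0.48 on the log2 scale (SE 0.109, edgeR adjusted p = 0.00439).

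*CDKN1C* (gene ID 1028, chr11:2883218-2885775, minus strand) encodes p57, an imprinted CIP/KIP inhibitor. It was near the limit of detection, with 18, 13 and 14 counts in the 6 h DMSO libraries and 15, 12 and 11 in the 6 h NXP800 libraries, which overlapped. At 24 h it had 13, 15 and 15 counts with DMSO and 23, 27 and 39 with NXP800, which did not overlap. The mean went from 0.485 to 0.950 CPM at 24 h, a log2 fold change of 0.97 (SE 0.276, 1.95-fold, edgeR adjusted p = 0.00693), while at 6 h the log2 fold change was -0.27 (SE 0.310, edgeR adjusted p = 0.492). The 24 h log2 fold change of *CDKN1C* lay above that at 6 h by 1.23 (SE 0.416, edgeR adjusted p = 0.0385). For *CDKN1C* this difference did not hold with DESeq2 (adjusted p = 0.123), without the filter on low counts (edgeR adjusted p = 0.0767) or when any 1 of 9 of the 12 libraries was left out, with adjusted p of 0.0307 to 0.111 over the 12 fits.

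**Figure D1:**
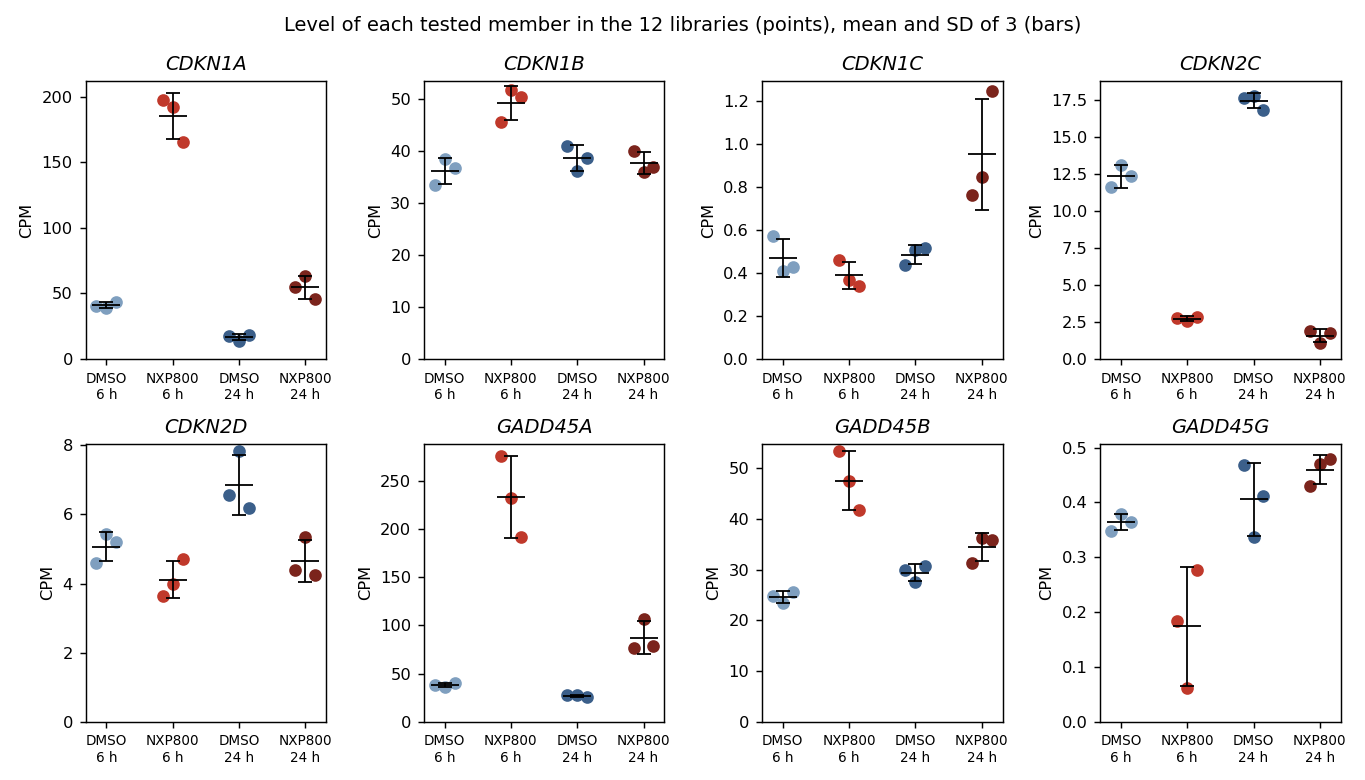
CPM of the 8 tested members in the 12 libraries (points), with the mean and SD of 3 libraries (bars), on axes that start at 0. *CDKN1A*, *GADD45A* and *GADD45B* peak with NXP800 at 6 h, *CDKN2C* is lowest with NXP800 at 24 h, and *CDKN1C* and *GADD45G* do not exceed 1.24 CPM.

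Among INK4 genes, *CDKN2C* (gene ID 1031, chr1:50960745-50974634, plus strand), which encodes p18, showed the largest decrease of all members. Its counts at 6 h were 366, 416 and 406 with DMSO and 91, 83 and 92 with NXP800. At 24 h they were 528, 529 and 491 with DMSO and 57, 35 and 56 with NXP800. The groups were far apart at both times, and the NXP800 replicates were close to each other at 6 h. The mean fell from 12.3 to 2.72 CPM at 6 h, a log2 fold change of -2.18 (SE 0.136, 4.54-fold lower, edgeR adjusted p = 3.11e-09). The 24 h means were 1.59 CPM with NXP800 and 17.4 CPM with DMSO, which gave a log2 fold change of -3.46 (SE 0.146, edgeR adjusted p = 4.91e-11). The decrease was deeper at 24 h by a further -1.28 on the log2 scale (SE 0.203, edgeR adjusted p = 0.000279), with the DMSO level higher at 24 h and the NXP800 level lower. Of the exon length of *CDKN2C*, 20.4% overlaps a gene on the opposite strand (ENSG00000290102) in GENCODE v44, and the strand setting of the counting is not given in the sources used here.

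*CDKN2D* (gene ID 1032, chr19:10566460-10568979, minus strand), which encodes p19, changed less. It had 145, 172 and 171 counts with DMSO and 119, 130 and 153 with NXP800 at 6 h, which overlapped, and the log2 fold change was -0.30 (SE 0.145, edgeR adjusted p = 0.0902). With libraries of the same replicate number and time taken as a block, the 6 h decrease passed the test (log2 fold change -0.30, edgeR adjusted p = 0.0211), as it did without NXP800 6 h replicate 3 (edgeR adjusted p = 0.0468). At 24 h it had 196, 233 and 180 counts with DMSO and 133, 171 and 133 with NXP800. Here the groups were apart, and the log2 fold change was -0.55 (SE 0.142, edgeR adjusted p = 0.00325). Its difference between the times was -0.25 (SE 0.203, edgeR adjusted p = 0.396).

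*CDKN2A* (gene ID 1029, chr9:21967752-21995324, minus strand), which encodes both p16 and ARF, and *CDKN2B* (gene ID 1030, chr9:22002903-22009313, minus strand), which encodes p15, had 0 counts in each of the 12 libraries. The floor of 3 counts puts the level that could be present at up to about 0.0911 to 0.103 CPM per library. This limit is approximate and covers counting error only, and no fold change can be given for either gene. Of the exon length of *CDKN2A*, 15.3% overlaps *CDKN2B-AS1* on the opposite strand. Their neighbours were read in the order of RefSeq along chromosome 9. From *LOC124900282* through *MTAP*, a purine salvage enzyme expressed in nearly all tissues, *CDKN2A*, the antisense transcript *CDKN2B-AS1* and *CDKN2B*, 7 symbols in a row each had at most 3 counts in the 12 libraries together, and 6 of them had none. On one side lay *MIR31*, with 20 counts in all, then *MIR31HG*, its host transcript, with 933, and farther off *KLHL9* with 12419 and *FOCAD* with 13591. On the other side *DMRTA1* had 2796 counts. *DMRTA1* was the tested gene of 4 fixed neighbours, and its log2 fold changes were 0.29 at 6 h (SE 0.126, edgeR adjusted p = 0.0652) and 0.22 at 24 h (SE 0.132, edgeR adjusted p = 0.160). Genes at 0 are common in this region, 34 of 49 symbols within 2000000 bases on either side of *CDKN2A* being at 0, many of them interferon genes. Whether the locus is lost or silent was not tested, since RNA counts cannot tell these apart.

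**Figure D2:**
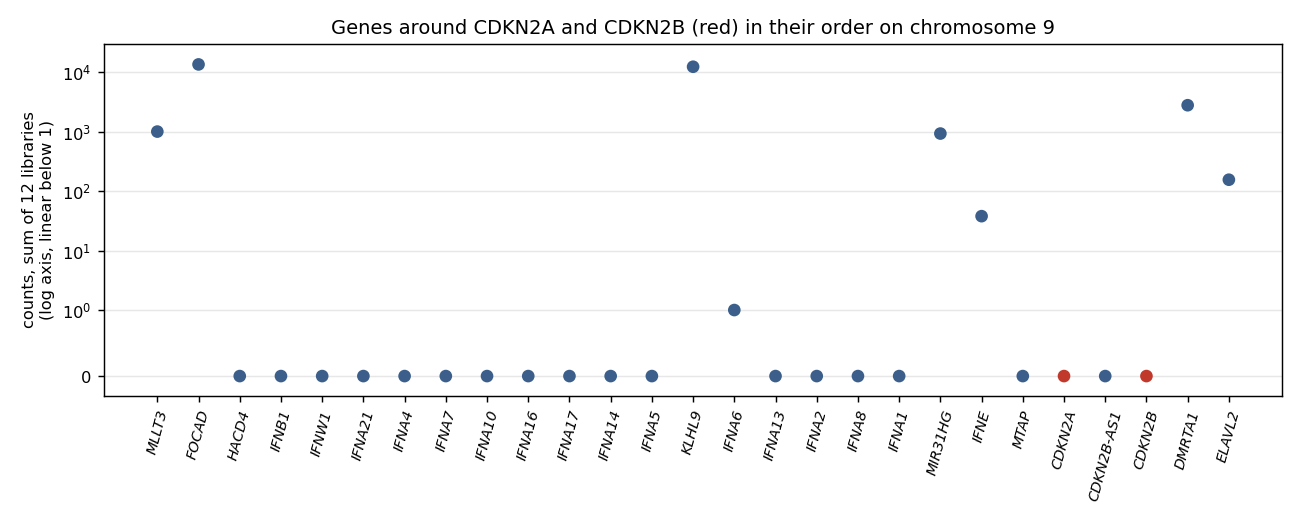
Counts summed over the 12 libraries (vertical axis, log scale, linear below 1) for protein-coding genes, *MIR31HG* and *CDKN2B-AS1* around the *CDKN2A* locus, in chromosomal order and not to distance. *MTAP*, *CDKN2A*, *CDKN2B-AS1* and *CDKN2B* (members in red) are at 0 between the expressed *MIR31HG* (933 counts) and *DMRTA1* (2796 counts).

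*GADD45A* (gene ID 1647, chr1:67685201-67688334, plus strand) showed the largest increase of all members at 6 h. It had 1200, 1128 and 1307 counts with DMSO and 8993, 7590 and 6249 with NXP800 at 6 h. After 24 h it had 829, 810 and 745 with DMSO and 2310, 3402 and 2470 with NXP800. No NXP800 library overlapped with the DMSO libraries of its time. The mean rose from 37.8 to 233 CPM at 6 h, a log2 fold change of 2.63 (SE 0.131, 6.18-fold, edgeR adjusted p = 2.68e-10). The 24 h means were 87.2 CPM with NXP800 and 26.9 CPM with DMSO, and the log2 fold change was 1.70 (SE 0.131, 3.25-fold, edgeR adjusted p = 1.93e-08). The response was smaller at 24 h by 0.93 on the log2 scale (SE 0.179, edgeR adjusted p = 0.00137). The 24 h NXP800 level was 2.31 times the 6 h DMSO level, a ratio between the times that was not tested.

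*GADD45B* (gene ID 4616, chr19:2476127-2478257, plus strand), a stress and cytokine response gene, had 782, 743 and 844 counts with DMSO and 1737, 1553 and 1358 with NXP800 at 6 h. These groups did not overlap, and the log2 fold change was 0.95 (SE 0.0906, 1.93-fold, edgeR adjusted p = 3.19e-07). The 24 h libraries had 893, 820 and 897 counts with DMSO and 946, 1153 and 1126 with NXP800. The groups did not overlap in CPM, though the lowest NXP800 library was close to the highest DMSO library, and the log2 fold change was 0.23 (SE 0.0907, 1.17-fold, edgeR adjusted p = 0.0422). Leaving out DMSO 24 h replicate 1 or 2, or NXP800 24 h replicate 2 or 3, ended this call (edgeR adjusted p = 0.0680, 0.151, 0.0894 and 0.113). The response was smaller at 24 h than at 6 h by 0.72 on the log2 scale (SE 0.128, edgeR adjusted p = 0.000684).

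*GADD45G* (gene ID 10912, chr9:89605012-89606555, plus strand) was hardly expressed. Its counts were 11, 12 and 12 with DMSO and 6, 2 and 9 with NXP800 at 6 h, which did not overlap, and 14, 10 and 12 with DMSO and 13, 15 and 15 with NXP800 at 24 h, which did. The log2 fold change at 6 h was -1.05 (SE 0.403, edgeR adjusted p = 0.0381), and that at 24 h was 0.18 (SE 0.340, edgeR adjusted p = 0.675). The 6 h decrease did not hold with DESeq2 (adjusted p = 0.140), without the filter (edgeR adjusted p = 0.0838), with the 6 h libraries alone (edgeR adjusted p = 0.0697), or when any 6 h library other than NXP800 replicate 3 was left out, with adjusted p up to 0.206. The difference between the times, 1.23 on the log2 scale (SE 0.528, edgeR adjusted p = 0.10), passed the test only without NXP800 6 h replicate 3 (edgeR adjusted p = 0.0418).

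**Figure D3:**
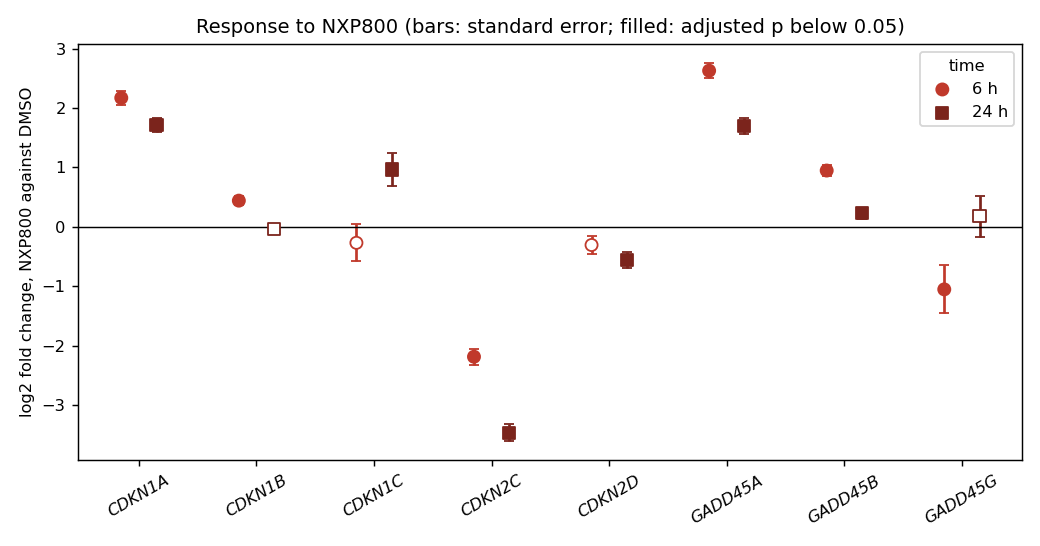
Log2 fold change of NXP800 against DMSO at 6 h (circles) and 24 h (squares) for the 8 tested members, with standard errors as bars and filled symbols where the edgeR adjusted p is below 0.05. *CDKN1A*, *GADD45A* and *GADD45B* are nearer to 0 at 24 h than at 6 h, whereas *CDKN2C* goes from -2.18 to -3.46.

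Comparing the responses of the 8 members between the times, 5 were lower at 24 h than at 6 h on the log2 scale (*CDKN1A*, *CDKN1B*, *CDKN2C*, *GADD45A* and *GADD45B*) and *CDKN1C* was higher, so 6 of 8 differed, where 25.8% of all tested genes did. For 4 of the 5 an increase became smaller or was no longer detected, and for *CDKN2C* a decrease became deeper. The differences of *CDKN1A* (edgeR adjusted p = 0.0467) and *CDKN1C* (0.0385) lay near the threshold. Both lost their call in most fits with 1 library left out. Over the 12 libraries Pearson's r of log2 CPM was 0.96 between *CDKN1A* and *GADD45A*, 0.90 between *GADD45A* and *GADD45B*, and -0.71 between *CDKN1A* and *CDKN2C*. These values describe 4 groups of 3 libraries that differ in treatment and in time. The part of each in the coefficients was not tested.

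Levels can be set side by side between genes after division by exon length, here as CPM per kb of the union of GENCODE exons. In 6 h DMSO the order was *GADD45A* (19.6 CPM per kb), *CDKN1A* (13.7), *GADD45B* (11.5), *CDKN2C* (4.09), *CDKN1B* (3.91), *CDKN2D* (3.37), *GADD45G* (0.275) and *CDKN1C* (0.189), above *CDKN2A* and *CDKN2B* at 0. *CDKN2C* and *CDKN1B* overlapped between libraries there, while all other neighbours among expressed members were apart. With NXP800 at 6 h, *GADD45A* (121 CPM per kb) and *CDKN1A* (61.7) led, *GADD45B* (22.2) and *CDKN1B* (5.32) followed, and *CDKN2C* (0.901) dropped below *CDKN2D* (2.73), with *CDKN1C* (0.157) and *GADD45G* (0.131) overlapping at the end.

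In 24 h DMSO the leading genes *GADD45A* (13.9 CPM per kb) and *GADD45B* (13.8) overlapped, and so did each neighbouring pair among *CDKN2C* (5.78), *CDKN1A* (5.53), *CDKN2D* (4.56) and *CDKN1B* (4.17). With NXP800 at 24 h, *GADD45A* (45.3 CPM per kb) was apart from *CDKN1A* (18.2) and *GADD45B* (16.1), which overlapped, then came *CDKN1B* (4.07) and *CDKN2D* (3.10). *CDKN2C* (0.526), *CDKN1C* (0.383) and *GADD45G* (0.347) closed the order, each overlapping with the next. The place of *CDKN1B* depends on the length used, since its exons cover 9255 bp together and its longest transcript is 4335 bp. Of the exon length of *CDKN1A*, 4.87% overlaps *DINOL* on the opposite strand.

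**Figure D4:**
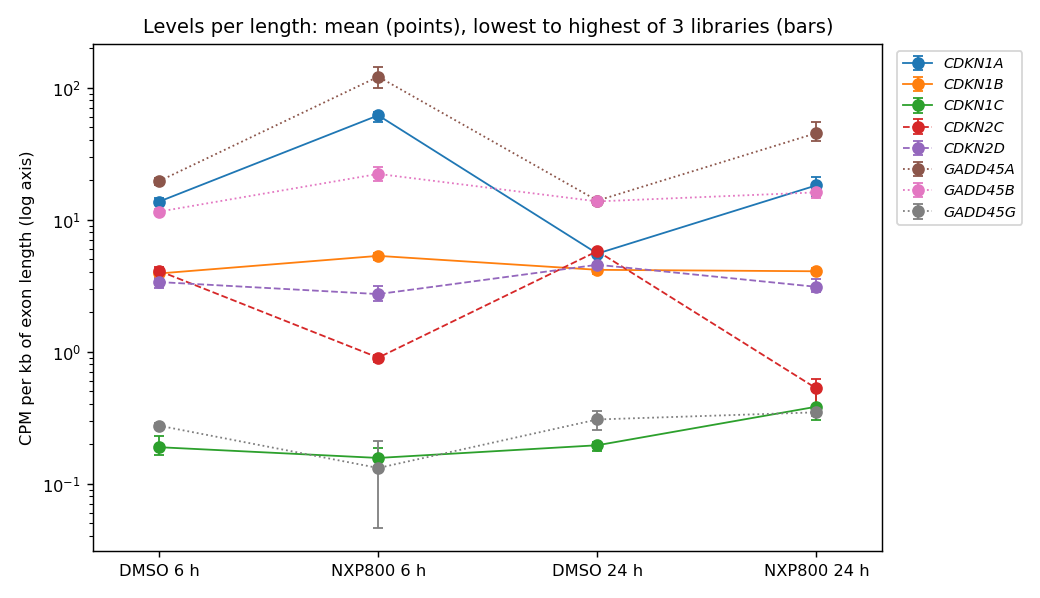
Mean CPM per kb of exon length (log axis) of the 8 expressed members in the 4 groups, with bars from the lowest to the highest of 3 libraries and lines that join the values of 1 gene (solid CIP/KIP, dashed INK4, dotted GADD45). *CDKN2C* goes from 4.09 and 5.78 with DMSO to 0.901 and 0.526 with NXP800 while the mean of *GADD45A* is the highest in every group.

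Summed by family on this scale, the CIP/KIP genes went from 17.8 ± 0.703 to 67.2 ± 5.70 CPM per kb at 6 h and from 9.90 ± 0.959 to 22.7 ± 2.85 at 24 h (SD, n = 3). *CDKN1A* made up 77.0% of this sum with DMSO and 91.8% with NXP800 at 6 h, and 55.8% and 80.1% at 24 h. With the longest transcript as length, its shares were 67.8% and 87.5% at 6 h and 44.3% and 72.1% at 24 h, and the DMSO sum at 24 h was 16.5 CPM per kb, so that *CDKN1B* and not *CDKN1A* was the larger part there. The INK4 sum went down, from 7.46 ± 0.531 to 3.63 ± 0.374 CPM per kb at 6 h and from 10.3 ± 0.712 to 3.63 ± 0.267 at 24 h (SD, n = 3). *CDKN2C* made up 54.9% of it with DMSO and 24.9% with NXP800 at 6 h, and 56.0% and 14.7% at 24 h, the rest being *CDKN2D*. The GADD45 sum went from 31.4 ± 1.6 to 144 ± 24.6 CPM per kb at 6 h, and reached 61.8 ± 9.60 with NXP800 at 24 h, against 27.3 to 28.7 in the 3 DMSO libraries (SD, n = 3). *GADD45A* accounted for 62.5% with DMSO and 84.3% with NXP800 at 6 h, and for 49.8% and 73.1% at 24 h. No family sum overlapped between DMSO and NXP800 at either time.

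The CDKs and cyclins that these inhibitors bind mostly decreased. Of 12, 2 rose and 8 fell at 6 h (median log2 fold change -0.35), and 1 rose and 9 fell at 24 h (median -0.88). Over all tested genes, 25.0% rose and 27.8% fell at 6 h, and 27.5% rose and 28.6% fell at 24 h. At 6 h the largest decreases were those of *CCNE2* (-0.91), *CCND3* (-0.87) and *CCNE1* (-0.86), cyclins of G1 and of entry into S phase. At 24 h they were those of *CCND3* (-1.65), *CCNA2* (-1.46) and *CDK1* (-1.44), the last 2 of which serve S phase and mitosis. *CDK6*, a target of INK4 proteins, rose at 6 h by 0.88 on the log2 scale (SE 0.0621, edgeR adjusted p = 1.21e-08) and its 24 h value was -0.081 (SE 0.0625, edgeR adjusted p = 0.284). *CCND2*, which encodes cyclin D2, had 6, 10 and 6 counts with DMSO and 84, 68 and 106 with NXP800 at 6 h, and 5, 4 and 0 against 66, 85 and 71 at 24 h. It was the cyclin that rose at both times, at a low level of 2.64 and 2.37 CPM with NXP800. *CCND2* passed the filter on low counts only through its NXP800 libraries, so it could enter these counts only as a gene that rose.

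Of 8 other brakes on CDKs, 0 rose at either time by the edgeR test, by DESeq2 or at an unadjusted p below 0.05. By the edgeR test, 4 fell at 6 h (median -0.18) and 6 at 24 h (median -0.70). The shares of all tested genes were 25.0% increased and 27.8% decreased at 6 h, and 27.5% and 28.6% at 24 h. The largest decrease at 6 h was that of *HEXIM1* (-1.61), an inhibitor of CDK9, followed by *CDK2AP2* (-0.65) and *CDK2AP1* (-0.53). At 24 h it was that of *PKMYT1* (-1.42), a kinase that holds CDK1 inactive, followed by *CDKN3* (-0.95), a phosphatase that acts on CDK2, and *CDK2AP1* (-0.93). Of 10 parts of the ubiquitin ligases that remove p21 and p27, 0 rose by any of these either. However, 1 rose at 6 h with libraries of the same number and time taken as a block. By the edgeR test, 5 fell at 6 h (median -0.20) and 8 at 24 h (median -0.43), against the shares of all tested genes just given. *SKP2*, the F-box protein that recognizes phosphorylated p27, had 1594, 1755 and 1694 counts with DMSO and 288, 406 and 434 with NXP800 at 6 h. The 24 h counts were 1777, 1635 and 1531 with DMSO and 629, 530 and 567 with NXP800. The groups were apart at both times, with log2 fold changes of -2.18 (edgeR adjusted p = 7.90e-10) and -1.59 (SE 0.116, edgeR adjusted p = 1.07e-08). *RBX1* (-0.50) and *CDC20* (-0.37) followed at 6 h, and *CUL4B* (-0.95) and *CDC20* (-0.90) at 24 h.

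Of 22 transcription factors known to act on genes of these families, 21 were tested. Of these, 14 rose and 3 fell at 6 h (median 0.38), while 12 rose and 2 fell at 24 h (median 0.23). Among all tested genes 25.0% rose and 27.8% fell at 6 h, and 27.5% rose and 28.6% fell at 24 h. This list, like the others, was chosen with earlier results of these data known, so the comparison is a description. The largest increases at 6 h were those of *KLF4* (2.59), *CEBPB* (2.51) and *MYC* (2.36), and the same 3 led at 24 h with *CEBPB* at 2.28, *KLF4* at 2.00 and *MYC* at 1.44. *TP73* (-1.46), *FOXO4* (-0.83) and *CEBPA* (-0.51) fell at 6 h, and *TP73* (-0.99) and *BRCA1* (-0.27) fell at 24 h.

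Of 8 partners of GADD45 proteins, 1 rose and 5 fell at 6 h (median -0.30), and 2 rose and 6 fell at 24 h (median -0.38). For all tested genes the shares were 25.0% up and 27.8% down at 6 h, and 27.5% up and 28.6% down at 24 h. *MAP2K6*, a kinase that activates p38, had 78, 121 and 96 counts with DMSO and 57, 45 and 53 with NXP800 at 6 h. The 24 h counts were 100, 118 and 97 with DMSO and 4, 2 and 2 with NXP800, near the floor, and its log2 fold change was -5.31 (SE 0.314, edgeR adjusted p = 1.12e-09). *PCNA*, the DNA clamp that p21 and GADD45 proteins bind, fell at both times (-0.91 and -1.25). *MAPK14*, which encodes p38 alpha (-0.59), came next at 6 h and *MAP2K3*, another kinase that activates p38, came next at 24 h. *MAPK8*, which encodes the kinase JNK1, rose at 6 h (0.68). It was also called increased at 24 h (0.25, edgeR adjusted p = 0.035), where the groups overlapped. *MAP2K7*, which activates JNK1, rose at 24 h (0.26).

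**Figure D5:**
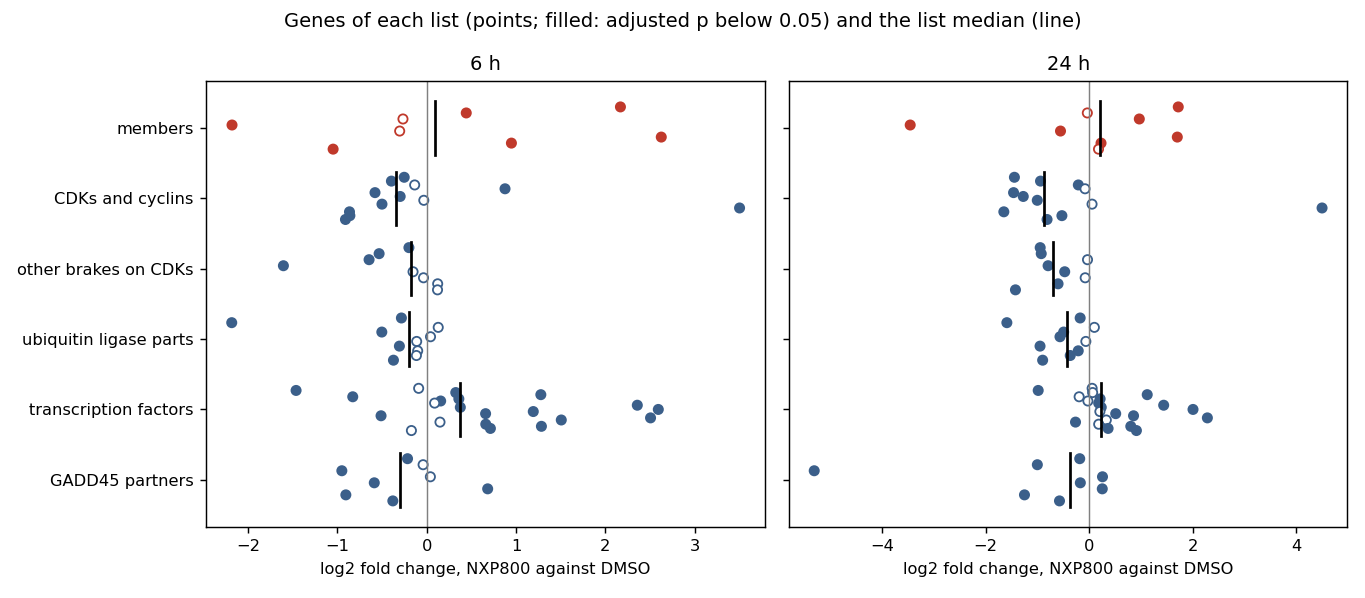
Log2 fold change of NXP800 against DMSO at 6 h (left) and 24 h (right) for each tested gene of 6 lists, filled where the edgeR adjusted p is below 0.05, with the list median as a vertical line and a horizontal scale that differs between the panels. The medians of CDKs and cyclins are -0.35 and -0.88 and those of transcription factors 0.38 and 0.23, and the members reach from -2.18 to 2.63 at 6 h.

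For the 6 members whose mean log2 CPM reached 1, the tested genes with the most similar pattern over the 12 libraries were found by Pearson's r of log2 CPM. For *CDKN1A* these were *MORC3* (0.997), *CSGALNACT2* (0.994) and *TBCEL* (0.993), and for *GADD45A* they were *ZFP3* (0.995), *ZNF697* (0.995) and *BRAP* (0.993). *GADD45B* was nearest to *ZBTB17* (0.983), *DUSP1* (0.981) and *CHTOP* (0.976). *CDKN2C* was nearest to *FSCN1* (0.993), *LONP2* (0.992) and *ASF1B* (0.991). For *CDKN2D* they were *MYO19* (0.966), *CLEC2D* (0.948) and *ZYG11A* (0.943), and for *CDKN1B* *HS3ST3A1* (0.949), *SNRK* (0.948) and *SOX21* (0.947). These coefficients are the highest among 15979 genes and the libraries fall into 4 groups, so they describe similar patterns in these data only.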

How the data were processed

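RNA of MNNG/HOS cells was sequenced from strand-specific poly(A) libraries. The deposited values are raw counts of read pairs per gene symbol. The submitters' processing notes name fastp 0.20.1, STAR 2.7.5a and HTSeq 0.12.4, and the builds hg38 and GRCh38.p14. The strand setting and counting mode are not given in the sources used here. Counter entries that name no gene (8.02 to 12.2% of read pairs) were left out.

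The analysis used edgeR 4.0.16 and limma 3.58.1 (R 4.3.3). The filterByExpr function kept 15979 genes, which were scaled by TMM and fitted in 1 quasi-likelihood model of the 4 groups. Contrasts were NXP800 against DMSO at 6 h, at 24 h, and the 24 h response minus that at 6 h. A gene was called at an adjusted p below 0.05 (Benjamini-Hochberg, all tested genes). CPM uses TMM-scaled library sizes. Alternatives were DESeq2 1.42.0 (Wald test or size factors), library size alone, other filters, a threshold of 0.01, the libraries of 1 time, each library left out, transcript length, and a replicate block. Libraries of the same number and time deviated together (r of 0.16 to 0.329 in 6 pairs, and -0.268 to 0.058 between numbers). The numbers thus appear to pair libraries within a time, which the labels do not state. The main model leaves this pairing out, and the replicate block takes it in. A block shared by both times was added after seeing the data. Replicates differed beyond sampling noise (chi-square per degree of freedom between 7.95 and 28.6). On simulated counts of 15679 genes, 195 of 200 genes changed by a factor of 2 at 6 h were recovered, with 11 other calls. With simulated pairing, 184 were recovered with 0 other calls, and 192 with 12 other calls when the block was fitted (15707 genes). The changed genes all had higher mean counts than *CDKN1C* and *GADD45G*, and far fewer genes changed than were called in the data. These rates therefore do not cover such weakly expressed members or so wide a response.

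Some marker, regulator and target genes are not reported here. The members and lists were chosen with earlier results of these data known. Beyond the members, at most the 3 called genes with the largest change each way are named per list and time, with 3 genes nearest to each member. Gene positions and promoter sequences are from RefSeq (GRCh38.p14), and exon lengths from GENCODE v44.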

Additional observations from a re-analysis of the deposited data

Results flagged for a closer look

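For 6 of the 8 tested members the response to NXP800 differed between the 2 times by a test of the difference itself, the 24 h log2 fold change minus that at 6 h (edgeR's quasi-likelihood test, Benjamini-Hochberg adjusted over 15979 genes). By the same test, 25.8% of all tested genes differed. *CDKN2C* differed by -1.28, *GADD45A* by -0.93, *GADD45B* by -0.72, *CDKN1B* by -0.48 and *CDKN1A* by -0.45, whereas *CDKN1C* differed by 1.23. Each response was taken against the DMSO libraries of its own time, and DMSO levels also differed between times, *CDKN1A* being 2.48 times and *GADD45A* 1.41 times as high at 6 h. For *CDKN2C* the DMSO level at 6 h was 0.708 times that at 24 h. The part of these DMSO differences in the 6 results was not tested. The difference of *CDKN1A* was lost with library size alone (edgeR adjusted p = 0.116), with a block shared by both times (0.0524) and when any 1 of 9 of the 12 libraries was left out. That of *CDKN1C* was lost with DESeq2 (adjusted p = 0.123), without the filter (edgeR adjusted p = 0.0767) and likewise when any 1 of 9 libraries was left out.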

How the results depend on the processing

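The directions of all called members held under every alternative that gave a value, *GADD45G* giving none where at least 10 counts were required in every library. *CDKN1B* at 24 h, which was not called, changed sign to 0.052 with library size alone, and leaving out each 24 h library gave -0.085 to 0.020, with 0.0080 without DMSO 24 h replicate 1 and 0.020 without NXP800 24 h replicate 2. Members decreased at 6 h numbered 1 in place of 2 without a filter, with at least 10 counts in every library, with the 6 h libraries alone, with DESeq2 and at a threshold of 0.01, and 1 to 3 when a library was left out. Members whose log2 fold change was called higher at 24 h than at 6 h numbered 0 in place of 1 without a filter, with DESeq2 and at 0.01, and 0 to 1 when a library was left out. With library size alone, ubiquitin ligase parts increased at 24 h numbered 1 in place of 0, and transcription factors decreased at 24 h numbered 1 in place of 2. This scaling moved the median of all genes at 24 h by 0.090. *DMRTA1* was called increased at both times with library size alone and with the replicate block, 1 in place of 0. With the longest transcript as length, 5 places in the order of levels changed. The causes were not tested.

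With the replicate block, which pairs libraries within a time, 9953 genes were called at 6 h in place of 8435, 10411 at 24 h in place of 8953, and 6284 in place of 4129 for the difference. Ubiquitin ligase parts increased at 6 h numbered 1 in place of 0, *CDKN2D* at 6 h was called (-0.30, edgeR adjusted p = 0.0211), and the block changed no other call of a member. With a block shared by both times, *GADD45B* at 24 h (edgeR adjusted p = 0.0510) and the difference of *CDKN1A* (edgeR adjusted p = 0.0524) were not called. The latter was also lost with library size alone (edgeR adjusted p = 0.116). *CDKN1C* and *GADD45G* had 2 to 39 counts per library, so counting error weighs most on them among the tested members.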
